A study of Mus musculus with 30 samples.

Results

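The 6 genes described here encode the inhibitors of cyclin-dependent kinases (CDKs) other than Cdkn1a. Cdkn1b (p27) and Cdkn1c (p57) belong to the CIP/KIP family, and Cdkn2a (p16 and ARF), Cdkn2b (p15), Cdkn2c (p18) and Cdkn2d (p19) to the INK4 family. They were taken by name as the other genes of these families and not by their measured values. Earlier results of these data were known when they were chosen. They were 6 of the 55416 gene identifiers in the count table. All 6 passed the filter on low counts in each comparison.

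RNA was sequenced from fracture calluses, the repair tissue that forms around a broken tibia, of 30 adult mice at 3, 6, 10 and 14 days post fracture (dpf). P-Apex1 KO mice (here also KO) were Prrx1-Cre;Apex1 C/C, in which Cre deletes Apex1, the gene of a DNA base excision repair and redox protein, in limb mesenchyme and its descendants; blood cells, vessels and muscle fibres keep the gene. WT mice were littermates with floxed alleles but no Cre (Apex1 C/+ or Apex1 C/C) or with Cre and 1 floxed allele (Prrx1-Cre;Apex1 C/+), and the labels do not say which mouse had which genotype. At 3 dpf there were 4 WT mice (2 female) and 4 KO mice (1 female), at 6 dpf 5 WT (3 female) and 3 KO (1 female), at 10 dpf 4 WT (2 female) and 3 KO (1 female), and at 14 dpf 4 WT (1 female) and 3 KO, all female. Total counts per library ran from 23476327 to 43111491 at 3 and 6 dpf and from 18334389 to 25185562 at 10 and 14 dpf. The style of the sample names also changes between 6 and 10 dpf, so levels were not tested across that step. Levels are given as counts scaled to a common library size (CPM, with scaling over all 30 libraries), in replicate order. Genotypes and time points were compared by the quasi-likelihood method of edgeR, sex being a covariate, and p was adjusted across the genes tested by Benjamini and Hochberg; a gene passed at an adjusted p under 0.05.

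INK4 proteins bind CDK4 and CDK6 and keep them from their D-type cyclins, whereas CIP/KIP proteins bind complexes of CDK2 with cyclin E or A and hold cells out of S phase. Cdkn2a makes a pair of unrelated proteins from separate promoters, p16 and ARF, of which ARF acts on p53 through Mdm2, and both rise in senescent cells. In the growth plate, p57 is known for the cell-cycle exit of chondrocytes before hypertrophy, and Cdkn1c is an imprinted gene expressed from the maternal allele.

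Apex1 itself checks the genotype labels. At 3 dpf WT libraries had 30, 26.5, 33.1 and 31.7 CPM and libraries labelled P-Apex1 KO 18.4, 29.1, 27.6 and 34.6 CPM. The groups overlapped, and KO replicate 4 was above every WT library, so Apex1 RNA does not separate the 3-dpf groups, and their genotypes are taken from the labels. At 6 dpf WT had 20.7, 25.3, 25.3, 28.9 and 20.8 CPM and KO 15.1, 15.2 and 15.9 CPM. At 10 dpf WT had 23.4, 17, 27.1 and 27.5 CPM and KO 14, 16.8 and 15.7 CPM, and at 14 dpf WT had 19.8, 27.2, 22.9 and 26.2 CPM and KO 15.1, 18.6 and 14.2 CPM. Every KO library was below every WT library at these 3 time points. By edgeR, Apex1 was lower in KO at 6 dpf (log2 fold change -0.67, SE 0.11, adjusted p = 0.0071) and at 10 dpf (-0.65, SE 0.13, adjusted p = 0.0278), but not at 3 dpf (-0.15, adjusted p = 0.927) or at 14 dpf (-0.29, 95% interval -0.72 to 0.15, adjusted p = 0.367). The 10-dpf difference no longer passed without WT replicate 1 (adjusted p = 0.0828) or without KO replicate 1, 2 or 3 (0.104, 0.0571 and 0.0742), and the 14-dpf difference passed without WT replicate 1 (-0.63, adjusted p = 0.0114). In whole callus, fewer cells of a type and less RNA per cell cannot be told apart, here or for any gene that follows.

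Per kb of merged exons, the order of the median levels over the 30 libraries was Cdkn1b (24.1 CPM per kb), Cdkn1c (18.9), Cdkn2d (15.9), Cdkn2c (5.44), Cdkn2b (2.91) and Cdkn2a (1.48). Cdkn1b was above Cdkn1c in 19 of 30 libraries and Cdkn1c above Cdkn2d in 21 of 30, so the order of these neighbours differed between libraries. By group mean per kb, Cdkn1c was above Cdkn1b in WT at 6 dpf (60.3 against 25.7) and 10 dpf (42.9 against 22.9). The same held in KO at 10 dpf (37.3 against 25.6), and Cdkn1c was below Cdkn1b in every other group. Cdkn2d was above Cdkn2c in 30 of 30, Cdkn2c above Cdkn2b in 27 and Cdkn2b above Cdkn2a in 26. Cdkn1c ranged most, 9.68-fold from 16.4 to 159 CPM, and Cdkn1b least, 1.44-fold from 90.6 to 131 CPM. Among 20522 genes ranked by mean CPM per kb, Cdkn1c stood at percentile 95.1, Cdkn1b at 93.9 and Cdkn2a at 41.8.

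**Figure D1:**
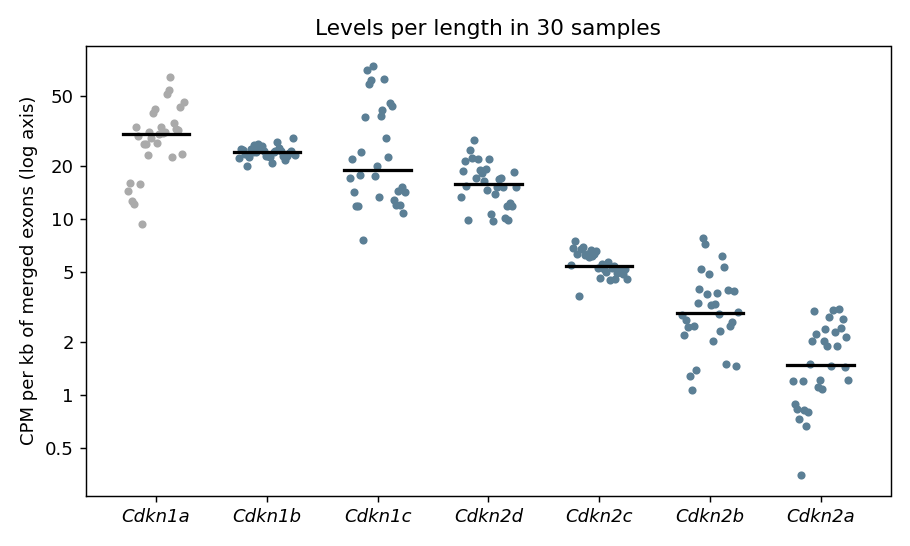
CPM per kb of merged exons (log axis) of the 6 genes and, in grey, Cdkn1a, 1 point per library, with a black line at the median of 30 libraries. Cdkn1b forms a tight band, Cdkn1c spreads over the widest range of the 6 genes, and Cdkn2a and Cdkn2b lie lowest.

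Cdkn1b (p27), the CIP/KIP inhibitor of quiescent cells, is regulated in large part through turnover of its protein. Its level was nearly flat. WT libraries had 101 to 114 CPM at 3 dpf, 109 to 122 CPM at 6 dpf, 95.1 to 110 CPM at 10 dpf and 98.8 to 108 CPM at 14 dpf. Libraries labelled KO had 90.6 to 114 CPM at 3 dpf, and KO had a mean of 106 ± 3.81 CPM (SD, n = 3) at 6 dpf, 110 to 125 CPM at 10 dpf and 105 to 131 CPM at 14 dpf. The genotypes overlapped at every time point, and the log2 differences were -0.03 at 3 dpf, -0.09 at 6 dpf, 0.17 at 10 dpf and 0.18 at 14 dpf, with 95% intervals that lay within -0.25 to 0.51. None passed edgeR's test, with adjusted p between 0.283 and 0.973. The sign at 6 dpf flipped to 0.10 with library size alone as the scaling, and at 3 dpf to 0.02 without KO replicate 1. Of 13784 protein-coding genes compared, Cyb561a3 (Pearson r = 0.81), Crlf3 (0.76) and Slc14a1 (0.76) were most like Cdkn1b over the 30 libraries.

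Cdkn1c (p57) was the only member that passed between genotypes. At 6 dpf the WT libraries had 81.5, 151, 126, 132 and 159 CPM and the KO libraries 37.9, 43 and 29 CPM. Each KO library lay below each WT library, and KO at 6 dpf stood where both genotypes stood at 3 dpf, with 36.8, 47.4, 30.6 and 25.5 CPM in WT and 25.4, 38.4, 52 and 16.4 CPM in libraries labelled KO. The means at 6 dpf were 130 ± 30.2 CPM (SD, n = 5) for WT against 36.6 ± 7.12 CPM (SD, n = 3) for KO, 3.54-fold lower in the fit. Cdkn1c thus passed edgeR's test (log2 fold change -1.82, SE 0.22, 95% interval -2.33 to -1.32, adjusted p = 0.00223), and it passed in each of the 9 other fits and without each of the 8 mice. It was 1 of 6 members called at 6 dpf, where 10.9% of 20260 genes were called, and 1 of 6 whose groups did not overlap, where 20.6% of genes did not. At 3 dpf the difference was 0.01 (95% interval -0.68 to 0.70, adjusted p = 0.998), an interval that holds changes of over 1.5-fold in either direction, and its sign flipped under library size alone (-0.05).

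At 10 dpf Cdkn1c overlapped between the genotypes. WT libraries had 83, 89.9, 134 and 62.2 CPM and KO libraries 48.2, 98.2 and 95 CPM, so 2 of 3 KO libraries were above 3 of 4 WT libraries. At 14 dpf WT had 27.5, 25.9, 31.2 and 25.9 CPM and KO 33, 23.3 and 30.6 CPM, and the genotypes overlapped here too. By edgeR the log2 difference was -0.33 at 10 dpf (95% interval -1.05 to 0.39, adjusted p = 0.567) and 0.10 at 14 dpf (-0.37 to 0.57, adjusted p = 0.789). The 10-dpf difference passed without WT replicate 4, the lowest WT library (-0.64, adjusted p = 0.0141), and was -0.03 without KO replicate 1.

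Over time in WT, Cdkn1c rose from 35.1 ± 9.4 CPM (SD, n = 4) at 3 dpf to 130 CPM at 6 dpf and fell from 92.4 ± 30.4 CPM (SD, n = 4) at 10 dpf to 27.6 ± 2.48 CPM (SD, n = 4) at 14 dpf. The rise was 1.85 on the log2 scale (SE 0.30, adjusted p = 0.000394 by edgeR) and the later change -1.83 (SE 0.24, adjusted p = 0.00103), with no overlap between the time points in either. In KO the mean was 33.1 CPM at 3 dpf and 36.6 CPM at 6 dpf, a log2 change of 0.16 (SE 0.32, 95% interval -0.54 to 0.86, adjusted p = 0.801). From 10 to 14 dpf KO went from 80.5 to 29 CPM with no overlap, a log2 change of -1.21 (SE 0.31) that missed the threshold in edgeR (adjusted p = 0.117) and passed without KO 10-dpf replicate 1 (-1.62, adjusted p = 0.0458). It also passed with DESeq2 (0.00607), without the sex term (0.0224) and with all libraries in 1 model (0.0334), within a range of 0.00607 to 0.246 over the other fits. Whether the genotype difference itself changed between 3 and 6 dpf was tested as an interaction, which gave -1.69 (SE 0.44, 95% interval -2.64 to -0.74) with an adjusted p of 0.0898 in edgeR, over the threshold, where 1.3% of genes were called. That interaction passed with DESeq2 (adjusted p = 0.00248) and with all libraries in 1 model (0.0352), within a range of 0.00248 to 0.204 over the other fits, and without KO 3-dpf replicate 4 (0.0297) or WT 6-dpf replicate 1 (0.0351). From 10 to 14 dpf the interaction was 0.63 (SE 0.41, adjusted p = 0.565).

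**Figure D2:**
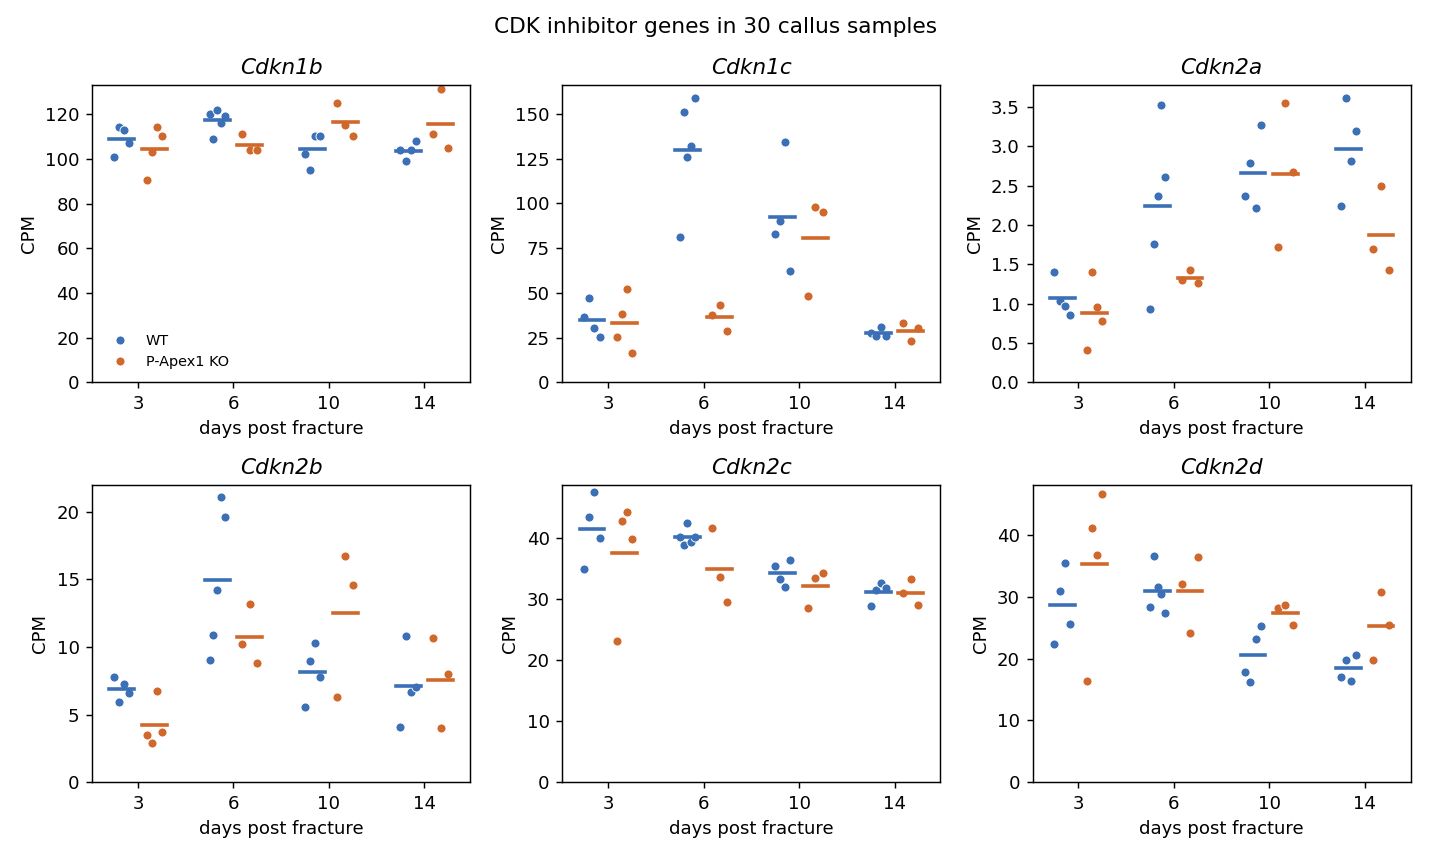
CPM of each member by days post fracture, 1 point per library, WT in blue and P-Apex1 KO in orange, with a bar at each group mean and axes that start at 0. Cdkn1c at 6 dpf shows the groups furthest apart, with WT from 81.5 to 159 CPM and KO from 29 to 43 CPM, and Cdkn1b stays between 90.6 and 131 CPM throughout.

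Markers of cartilage were read beside Cdkn1c. The summed CPM of 8 chondrocyte markers (most abundant Col2a1, mean 7120 CPM) at 6 dpf was 29700, 39900, 35000, 40100 and 54100 in WT and 4420, 3480 and 2220 in KO, and at 3 dpf it was 425 to 475 in WT and 141 to 579 in KO. It was 15800 to 41800 in WT and 11100 to 18800 in KO at 10 dpf, and 2480 to 6840 in WT and 4680 to 5180 in KO at 14 dpf. In WT the sum, like Cdkn1c, was low at 3 dpf and high at 6 dpf, but in KO every 6-dpf sum was above every 3-dpf sum, where Cdkn1c overlapped. Of the 8 markers 1 was at 0 in 3 of the WT libraries of 3 dpf. At 6 dpf 8 of 8 were lower in KO (median log2 difference -3.00, against 0.01 over all genes), among them Matn1 (-5.03), Col2a1 (-4.68) and Col9a1 (-3.48). From 3 to 6 dpf 8 of 8 rose in WT and 6 of 8 in KO, and from 10 to 14 dpf 7 of 8 fell in WT. The shares of all genes called in these comparisons were 30.5%, 14% and 11.1%. Between genotypes 0 of 8 passed at 10 dpf, and at 14 dpf 7 of 8 were higher and 1 lower in KO in the fit with sex (median 2.67, against 0.10 for Cdkn1c), where the sums overlapped and WT replicate 1 had the lowest sum. In the same 6-dpf comparison 3 of 4 hypertrophic chondrocyte and 7 of 8 osteoblast markers were lower in KO, 7 of 8 skeletal muscle, 4 of 6 macrophage, 4 of 5 T cell, 2 of 4 adipocyte and 1 of 4 B cell markers were higher, and 0 of 6 osteoclast, 0 of 6 limb mesenchyme and fibroblast, 0 of 7 neutrophil, 0 of 5 erythroid and 0 of 5 endothelial markers passed. What part these shifts in markers had in the Cdkn1c difference was not tested.

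Other imprinted genes of growth control were also read beside Cdkn1c. The summed CPM of 10 of them (H19 the most abundant, mean 1340 CPM) was 7560, 9700, 9650, 10700 and 11300 in WT and 5040, 4490 and 3140 in KO at 6 dpf, with each KO library below each WT library. At 6 dpf 8 of 10 were lower in KO (median -1.24), the largest being Plagl1 (-2.19, SE 0.23), a zinc finger factor known as a regulator of other imprinted genes, Peg3 (-1.92, SE 0.22) and Dlk1 (-1.29, SE 0.23). In WT 9 of 10 rose from 3 to 6 dpf and 7 of 10 fell from 10 to 14 dpf, in KO 6 of 10 rose from 3 to 6 dpf, where Cdkn1c did not pass, and 0 of 10 passed from 10 to 14 dpf. For the same pairs of time points, the shares of all genes called were 30.5% and 11.1% in WT and 14% and 0.259% in KO. Genes of the chromosome 7 domain that holds Cdkn1c, read as Kcnq1ot1, Kcnq1, Phlda2, Slc22a18, Cd81, Tssc4 and Ascl2, had 0 of 6 tested genes called between genotypes at 6 dpf, with a median of -0.02. From 3 to 6 dpf in WT, Kcnq1 (0.82, adjusted p = 0.0157 by edgeR) and Cd81 (0.49, adjusted p = 0.0022) rose, where 30.5% of all genes were called. Cd81 also rose in KO (0.41, adjusted p = 0.0267), where 14% were called. The genes most like Cdkn1c over the 30 libraries were Nid2 (r = 0.95), Grb10 (0.91), itself 1 of the 10 imprinted genes, and Zfp385b (0.91). In the annotation Cdkn1c shares its strand with the long noncoding gene 4933417O13Rik, which had 0 to 8 counts per library against 464 to 5216 for Cdkn1c.

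**Figure D3:**
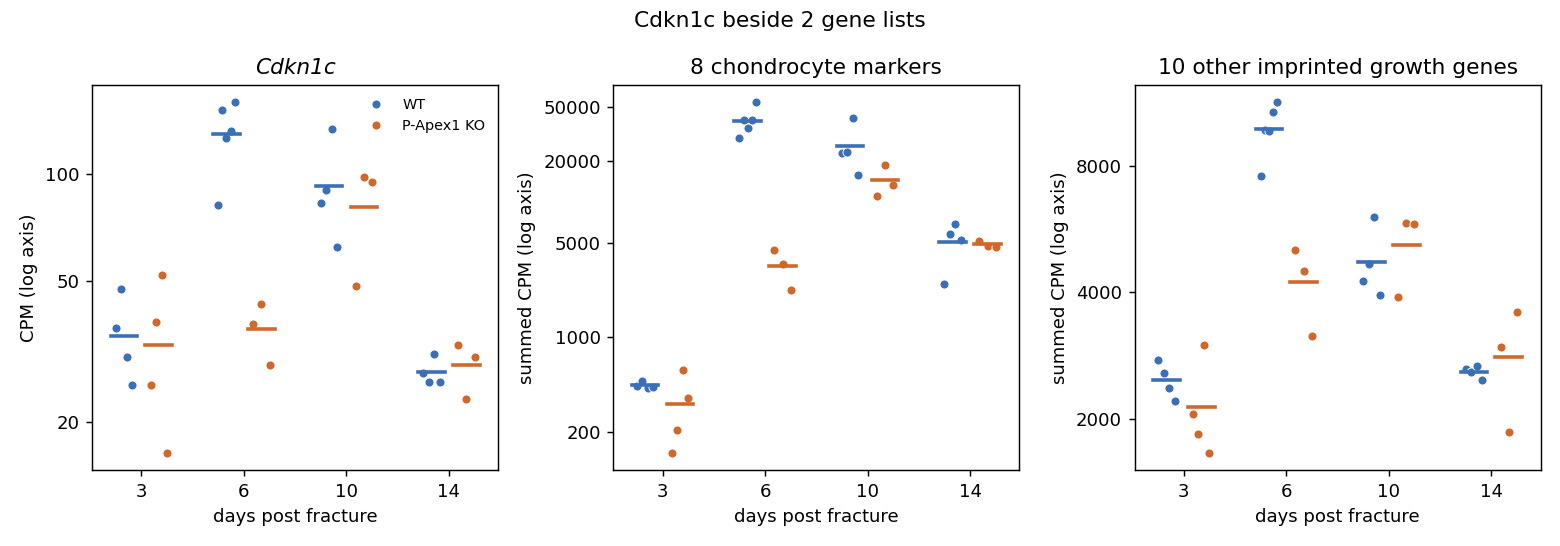
Cdkn1c in CPM beside the summed CPM of 8 chondrocyte markers and of 10 other imprinted growth genes, by days post fracture on log axes, 1 point per library, bars at group means, WT in blue and P-Apex1 KO in orange. In all 3 panels every KO library of 6 dpf lies below every WT library of 6 dpf, and the genotypes overlap at 3, 10 and 14 dpf.

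Cdkn2a and Cdkn2b lie side by side on chromosome 4. The counts merge the p16 and ARF transcripts of Cdkn2a, and its depth was low, 13 to 107 reads per library, so that its values are coarse. The 3 starts are shown because both genes rose in WT from 3 to 6 dpf. The sequences are the 250 bases before each start, 5′ to 3′ on the minus strand, from RefSeq on GRCm38.p6, whose table listed starts for 5 of the 6 members. The windows are chr4:89311033-89311282 for Cdkn2b, chr4:89294620-89294869 for Cdkn2a start 1 (ARF) and chr4:89282193-89282442 for Cdkn2a start 2 (p16). Capitals mark matches, on either strand, to 4 motifs that were picked after the sequences had been looked at: CRE (TGACGTCA), E2F (TTTNGCGC), GC box (GGGCGG) and AP-1 (TGANTCA).
Cdkn2b: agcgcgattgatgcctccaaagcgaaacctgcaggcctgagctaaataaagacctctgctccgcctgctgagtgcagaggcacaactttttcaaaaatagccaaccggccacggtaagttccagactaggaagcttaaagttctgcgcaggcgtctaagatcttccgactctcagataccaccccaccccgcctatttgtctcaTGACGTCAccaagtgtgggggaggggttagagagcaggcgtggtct
Cdkn2a start 1: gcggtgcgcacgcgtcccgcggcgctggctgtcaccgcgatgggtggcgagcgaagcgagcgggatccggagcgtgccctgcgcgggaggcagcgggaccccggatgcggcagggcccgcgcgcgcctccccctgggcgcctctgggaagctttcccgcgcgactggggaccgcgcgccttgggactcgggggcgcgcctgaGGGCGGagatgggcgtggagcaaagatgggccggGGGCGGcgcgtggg
Cdkn2a start 2: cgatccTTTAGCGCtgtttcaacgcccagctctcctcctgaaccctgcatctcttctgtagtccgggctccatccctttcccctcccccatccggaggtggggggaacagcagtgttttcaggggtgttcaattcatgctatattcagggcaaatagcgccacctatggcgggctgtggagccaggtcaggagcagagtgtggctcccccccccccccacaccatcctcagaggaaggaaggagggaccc
The CRE letters stood 46 bases before the Cdkn2b start and occur in this window at 1.55% of 32851 starts. The ARF start had 2 GC boxes (32.7% of starts hold at least 1), and the AP-1 letters, present at 6.75% of starts, were in none of the members' windows. At the p16 start, TTTAGCGC stood 244 bases upstream. It matches the letters listed as E2F (1.13% of starts) only because N allows any base, here an A. A match of letters shows no binding.

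Cdkn2b (p15), an INK4 inhibitor known as a target of TGF-beta signalling, was the gene that rose early in both genotypes. At 3 dpf WT had 7.76, 5.96, 7.3 and 6.61 CPM and libraries labelled KO 3.5, 2.9, 6.74 and 3.75 CPM, so 3 of 4 KO libraries were below every WT library. At 6 dpf WT had 9.03, 10.9, 14.2, 21.1 and 19.6 CPM and KO 10.2, 13.2 and 8.81 CPM, all above every 3-dpf library. By edgeR the rise from 3 to 6 dpf was 1.07 in WT (SE 0.27, adjusted p = 0.00748) and 1.35 in KO (SE 0.30, adjusted p = 0.009), the latter 1 of 6 members called where 14% of genes were. The KO rise missed the threshold without KO 6-dpf replicate 2 (1.16, adjusted p = 0.0608). The interaction was 0.29 (SE 0.40, adjusted p = 0.858), so the rises were not shown to differ. The genotype difference at 3 dpf was -0.68 (SE 0.23, 95% interval -1.21 to -0.15) with an adjusted p of 0.768, and at 6 dpf -0.48 (SE 0.29, adjusted p = 0.334).

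Later, Cdkn2b had 5.56, 9, 10.3 and 7.8 CPM in WT and 6.27, 16.7 and 14.6 CPM in KO at 10 dpf, so 2 of 3 KO libraries were above every WT library. The difference was 0.43 (SE 0.26, 95% interval -0.17 to 1.03, adjusted p = 0.361 by edgeR). At 14 dpf WT had 4.09, 10.8, 6.68 and 7.04 CPM and KO 10.7, 3.99 and 8.04 CPM, with means of 7.14 and 7.56 CPM. The fitted difference at 14 dpf was nonetheless 0.91 (SE 0.54, 95% interval -0.34 to 2.17, adjusted p = 0.315), because with sex in the model it rests on replicate 1, the only WT female and the lowest WT library. Without that mouse, and with no sex term, it was -0.06, and without KO replicate 2 it was 1.21 and passed (adjusted p = 0.045). From 10 to 14 dpf Cdkn2b changed by -0.46 in WT (adjusted p = 0.405) and -0.10 in KO (adjusted p = 0.934), with an interaction of 0.35 (adjusted p = 0.84). Rgs4 (r = 0.89), Frmd5 (0.88) and Megf6 (0.88) were most like Cdkn2b over the 30 libraries, and among the members Cdkn1c was (0.67).

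Cdkn2a (p16 and ARF), the classic marker of senescence, was the least abundant member. In WT it had 1.41, 1.03, 0.978 and 0.852 CPM at 3 dpf, and 0.938, 1.76, 2.37, 3.52 and 2.61 CPM at 6 dpf. Of the 5 WT libraries of 6 dpf, 4 were above every WT library of 3 dpf. Libraries labelled KO had 0.41, 1.4, 0.963 and 0.778 CPM at 3 dpf, and KO had 1.3, 1.43 and 1.26 CPM at 6 dpf, all 3 below 4 of 5 WT libraries. The rise in WT was 1.03 (SE 0.35, adjusted p = 0.0371 by edgeR), which made Cdkn2a, Cdkn2b and Cdkn1c 3 of 6 members called where 30.5% of genes were. It was lost with library size alone (0.78, adjusted p = 0.0746; range 0.00781 to 0.0746 over the other fits) and without any 1 of WT 3-dpf replicates 2, 3 or 4 or WT 6-dpf replicates 3, 4 or 5 (adjusted p from 0.0614 to 0.116). In KO the change was 0.59 (SE 0.41, adjusted p = 0.369), and the interaction -0.44 (SE 0.54, adjusted p = 0.833).

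At 10 dpf Cdkn2a had 2.37, 2.79, 2.22 and 3.27 CPM in WT and 1.72, 3.55 and 2.67 CPM in KO, and at 14 dpf 2.24, 3.62, 2.82 and 3.19 CPM in WT and 1.7, 2.5 and 1.43 CPM in KO. The groups overlapped at both. Its genotype differences were -0.28 at 3 dpf, -0.78 at 6 dpf (95% interval -1.63 to 0.06, adjusted p = 0.224 by edgeR), -0.09 at 10 dpf and -0.23 at 14 dpf (95% interval -1.10 to 0.64, adjusted p = 0.733). At 14 dpf the group means were 2.97 CPM in WT and 1.88 CPM in KO, and 2 of 3 KO libraries were below every WT library. With sex in the model that difference rests on WT replicate 1, the lowest WT library. It was -0.73 without that mouse (adjusted p = 0.0663, no sex term), -0.62 with no sex term and 0.04 with library size alone. The 10-dpf value was 0.17 without KO replicate 1. From 10 to 14 dpf the changes were 0.02 in WT (adjusted p = 0.972) and -0.19 in KO (adjusted p = 0.824), with an interaction of -0.21 (adjusted p = 0.877). Slc29a1 (r = 0.89), Abat (0.86) and Zfp608 (0.86) were most like it, and its r with Cdkn2b next to it was 0.48. Neighbours of the INK4 genes (Mtap, Dmrta1, Faf1, Carm1 and Ap1m2) had 0 of 4 tested genes called between genotypes at 3 and 6 dpf, 0 of 3 at 10 dpf and 0 of 5 at 14 dpf. From 3 to 6 dpf Carm1 rose in WT (0.36, adjusted p = 0.018 by edgeR), where 30.5% of all genes were called. In KO, where 14% were called, Mtap (-0.43, adjusted p = 0.0192) and Faf1 (-0.23, adjusted p = 0.0437) fell.

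Cdkn2c (p18), an INK4 inhibitor of dividing precursor cells, showed no difference that passed, between genotypes or within either pair of time points; levels were not tested across the step from 6 to 10 dpf. In WT it had 41.5 ± 5.35 CPM (SD, n = 4) at 3 dpf, 40.2 ± 1.35 CPM (SD, n = 5) at 6 dpf, 34.3 ± 2.05 CPM (SD, n = 4) at 10 dpf and 31.2 ± 1.59 CPM (SD, n = 4) at 14 dpf. In KO it had 37.5 ± 9.78 CPM (SD, n = 4), 34.9 ± 6.16 CPM (SD, n = 3), 32.1 ± 3.15 CPM (SD, n = 3) and 31.1 ± 2.09 CPM (SD, n = 3). The genotypes overlapped at each time point, and the differences of -0.07, -0.14, -0.10 and 0.13 had adjusted p between 0.413 and 0.971 in edgeR and 95% intervals within -0.49 to 0.43. The 6-dpf sign flipped with library size alone (0.04) and the 3-dpf sign without KO replicate 1 (0.07), the library with 23.1 CPM where the other KO libraries had 39.9 to 44.2 CPM. The genes most like it were Rad21 (r = 0.88), Ncaph2 (0.86) and Stmn1 (0.84).

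Cdkn2d (p19, a protein distinct from ARF) was the most abundant INK4 member per kb. At 10 dpf WT had 17.8, 16.2, 23.1 and 25.3 CPM and KO 28.1, 28.7 and 25.4 CPM, so that each KO library was above each WT library, if by as little as 0.1 CPM as printed. At 14 dpf WT had 17, 19.8, 16.4 and 20.6 CPM and KO 19.7, 30.7 and 25.4 CPM, with 2 of 3 KO libraries above every WT library. By edgeR the difference was 0.40 at 10 dpf (SE 0.13, 95% interval 0.10 to 0.70, adjusted p = 0.11) and 0.60 at 14 dpf (SE 0.26, 95% interval -0.01 to 1.20, adjusted p = 0.189), so neither passed. The 10-dpf difference passed with no filter on low counts (adjusted p = 0.042; range 0.042 to 0.332 over the other fits), and the 14-dpf difference passed with no sex term (0.49, adjusted p = 0.0424; range 0.0424 to 0.189) and without KO replicate 1 (0.76, adjusted p = 0.0428). At 6 dpf WT had 27.4 to 36.6 CPM and KO 24.2 to 36.5 CPM (0.00, adjusted p = 0.991), and at 3 dpf WT had 22.3 to 35.5 CPM and libraries labelled KO 16.4, 41.1, 36.8 and 46.6 CPM (0.40, 95% interval -0.35 to 1.14, adjusted p = 0.891).

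The genes most like Cdkn2d over the 30 libraries were Elane (r = 0.95) and Prtn3 (0.94), which encode proteases of developing neutrophils, and the histone gene H1f5 (0.94). Elane at 10 dpf had 37.7, 26.1, 54.9 and 55.8 CPM in WT and 89.5, 126 and 61.3 CPM in KO, with the groups apart in the same direction as for Cdkn2d. As Elane was picked for its likeness to Cdkn2d in these same libraries, this is no separate observation. The summed CPM of 7 neutrophil and precursor markers (S100a8 the most abundant, mean 848 CPM, none at 0 in any library) was 996, 879, 1940 and 1890 in WT and 2540, 3690 and 1940 in KO at 10 dpf. At 14 dpf it was 920, 1180, 1190 and 1380 in WT and 2120, 2460 and 1820 in KO. Of these markers 0 of 7 passed at 10 dpf (median 0.95, against 0 over all genes) and 5 of 7 were higher in KO at 14 dpf (median 1.15, against 0.04), S100a9 (1.48, SE 0.21) and S100a8 (1.27, SE 0.20) the most, both over the threshold with all libraries in 1 model (adjusted p = 0.0671 and 0.0637). KO replicate 1 of 3 dpf had the lowest Elane (19.5 CPM), the lowest marker sum (750) and, with 16.4 CPM, 1 of the lowest values of Cdkn2d. What part these cells had in the Cdkn2d values was not tested.

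**Figure D4:**
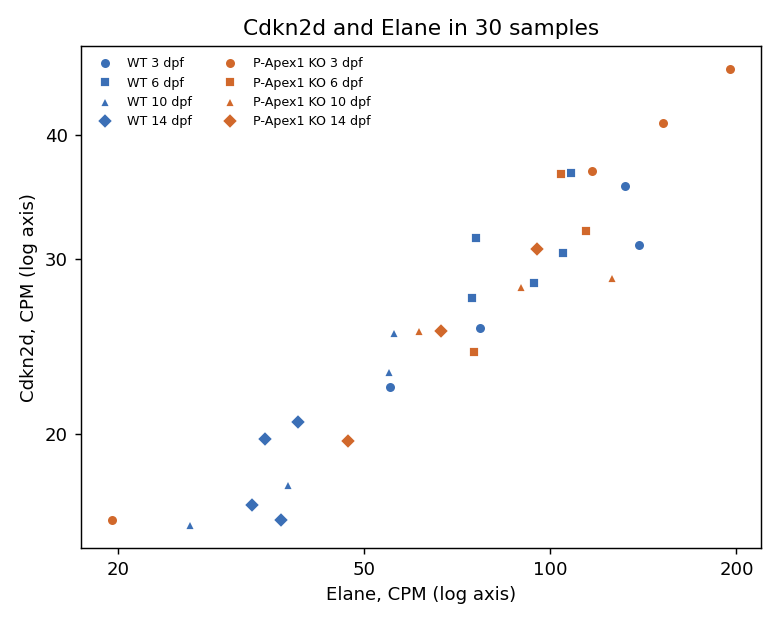
Cdkn2d against Elane, both in CPM on log axes, 1 point per library, shape by days post fracture, WT in blue and P-Apex1 KO in orange. The 30 libraries lie along 1 band (r = 0.95), and the KO libraries of 10 dpf (25.4 to 28.7 CPM of Cdkn2d) sit above the WT libraries of 10 dpf on both axes. Elane was picked for its likeness to Cdkn2d in these libraries.

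The counts of members that passed are set beside the share of all genes that did. At 3 dpf edgeR called 0 of 6 members and 0% of 19866 genes; 1216 genes had an unadjusted p under 0.05, DESeq2 called 85, and 0 of 6 members had groups that did not overlap, against 3.66% of genes. At 10 dpf 0 of 6 members were called against 6.46% of 18910 genes, and 1 of 6, Cdkn2d, had groups that did not overlap, against 19.3% of genes. At 14 dpf 0 of 6 were called against 11.3% of 20228 genes, and 0 of 6 had groups that did not overlap against 42%, a share that also carries the difference in sex. From 10 to 14 dpf in WT 1 of 6, Cdkn1c, was called against 11.1% of genes, in KO 0 of 6 against 0.259%, and for the interaction 0 of 6 against 0.436%. Cdkn1b, Cdkn2c and Cdkn2d passed in none of the comparisons between time points. The median difference of the 6 members was -0.05, -0.31, 0.04 and 0.15 at 3, 6, 10 and 14 dpf, against 0, 0.01, 0 and 0.04 over all genes.

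**Figure D5:**
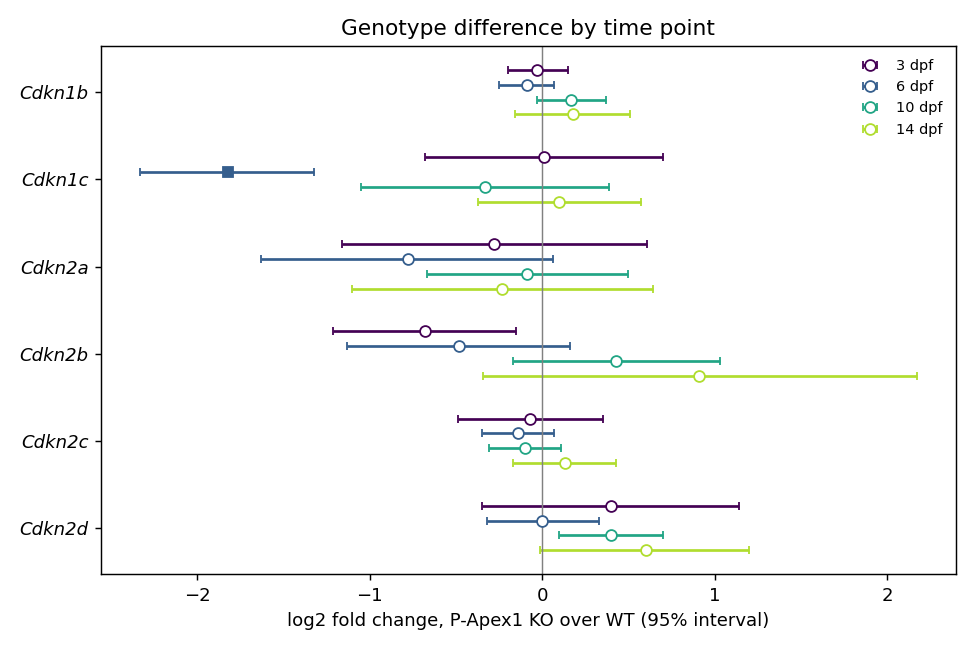
Log2 fold change of P-Apex1 KO over WT with its 95% interval for each member at 3, 6, 10 and 14 dpf, a filled square where edgeR's adjusted p was under 0.05 and an open circle elsewhere. Cdkn1c at 6 dpf (-1.82) is the 1 filled point; the sign of Cdkn1c at 3 dpf, of Cdkn1b and Cdkn2c at 6 dpf and of Cdkn2a at 14 dpf flips with library size alone as the scaling.

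For the kinases and cyclins that the members act on, the shares of all genes called were 10.9% at 6 dpf, 6.46% at 10 dpf and 11.3% at 14 dpf. Of CDK4, CDK6 and the D-type cyclins 1 of 5 was higher in KO at 6 dpf, Ccnd2 (0.72, SE 0.11, adjusted p = 0.00407 by edgeR). Ccnd2 was again the 1 higher at 10 dpf (0.46, SE 0.07), a call lost without WT replicate 1 or 2 or KO replicate 1 (adjusted p = 0.0656, 0.0644 and 0.108). At 6 and 10 dpf 0 of 10 genes of CDK2, CDK1 and their cyclins, 0 of 13 of the pocket proteins and E2F factors and 0 of 12 S-phase genes passed, with S-phase medians of 0 and 0.1. At 14 dpf 5 of 10, 4 of 13 and 8 of 12 of these lists were higher in KO and 0 lower, with medians of 0.54, 0.33 and 0.57 against 0.04 over all genes; Mki67 (1.09, SE 0.12), Rrm2 (0.82, SE 0.12), Ccna2 (0.83, SE 0.11), Ccnb2 (0.74, SE 0.12) and E2f2 (1.15, SE 0.16) were among them, and of these E2f2 missed the threshold with all libraries in 1 model (adjusted p = 0.112). Of the D-type list at 14 dpf 1 of 5 was lower, Cdk4 (-0.41), a call lost with library size alone (-0.14), with no filter on low counts and without WT replicate 2, 3 or 4 (adjusted p = 0.103, 0.0947 and 0.103).

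The counts of regulators that follow stand beside shares of all genes called of 10.9% at 6 dpf, 6.46% at 10 dpf and 11.3% at 14 dpf. Of 9 genes for the turnover and transcription of CIP/KIP proteins 1 was lower at 6 dpf, 0 passed at 10 dpf, and at 14 dpf 1 was higher and 1 lower. Of 10 Polycomb and demethylase genes of the INK4 locus 1 was higher at 6 dpf, Cbx7 (0.92, SE 0.18), a Polycomb repressor of Cdkn2a, which lost its call without WT replicate 4 or KO replicate 1 (adjusted p = 0.0513 and 0.0893); 0 passed at 10 dpf, and at 14 dpf Kdm6b was lower (-0.65, SE 0.12), though not with library size alone (-0.38, adjusted p = 0.08). In the ARF and p53 list of 9 genes 1 was higher and 1 lower at 6 dpf, and 2 were higher and 1 lower at 10 dpf. Mdm2 was higher at 6 dpf (0.28, adjusted p = 0.0469 by edgeR) and at 10 dpf (0.36, adjusted p = 0.0371). Cdkn1a, described below, was the other gene higher at 10 dpf. The lower gene was Tbx2 both at 6 dpf (-0.86, adjusted p = 0.045 by edgeR) and at 10 dpf (-1.01, adjusted p = 0.013). At 14 dpf 2 were lower, Tbx2 (-2.60, SE 0.12) and Twist1 (-1.87, SE 0.18), both known as repressors of the Cdkn2a locus. In the same comparison 5 of 8 osteoblast and 6 of 6 osteoclast markers were lower in KO, and what part such shifts had in Tbx2 and Twist1 was not tested. Cdkn2a itself did not pass at that time point.

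Beside the senescence counts that follow, the shares of all genes called were 10.9% at 6 dpf, 6.46% at 10 dpf and 11.3% at 14 dpf. Of 16 genes of the senescence-associated secretome, 7 were higher and 1 lower in KO at 6 dpf (median 0.61, against 0.01 over all genes). Mmp3 (1.88, SE 0.31), Ccl2 (1.38, SE 0.22) and Ccl8 (1.37, SE 0.14) were highest and Igfbp3 (-1.44, SE 0.24) was lower. Mmp3 missed the threshold without KO replicate 1 (1.76, adjusted p = 0.0572), and Mmp3 and Igfbp3 missed it with no filter on low counts (0.0604 and 0.0527). At 10 dpf 2 of 15 tested were higher, Il1b (1.13, SE 0.14; adjusted p = 0.0708 without KO replicate 1) and Icam1 (0.57, SE 0.09; adjusted p = 0.0531 without WT replicate 1 or 2 and 0.108 without KO replicate 1). At 14 dpf 1 of 15 was higher, Plaur (0.64, adjusted p = 0.0242), which was -0.09 without WT replicate 1, the only WT female, and lost its call without WT replicate 2, 3 or 4. Of 6 macrophage markers 4 were higher in KO at 6 dpf and 3 at 10 dpf, and what part such cells had in these genes was not tested. Of the 3 nuclear genes lost in senescence (Lmnb1, Hmgb1 and Hmgb2) 0 passed at 6 and 10 dpf and 1, Hmgb2, was higher at 14 dpf (0.96, SE 0.19; adjusted p = 0.054 without WT replicate 2). The level of Cdkn2a did not pass at any time point in either direction between genotypes.

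Cdkn1a (p21), the p53 target of the CIP/KIP family, passed at 10 dpf, where none of the 6 members did. At 10 dpf WT had 183, 201, 186 and 190 CPM and KO 310, 329 and 389 CPM, with a log2 difference of 0.85 (SE 0.10, adjusted p = 0.00729 by edgeR) that missed the threshold with all libraries in 1 model (0.82, adjusted p = 0.0727). At the other time points it overlapped, with 0.60 at 3 dpf (adjusted p = 0.876), 0.44 at 6 dpf (adjusted p = 0.1) and 0.78 at 14 dpf (adjusted p = 0.199). The 14-dpf means were 184 CPM in WT and 228 CPM in KO, and the difference was 0.35 with no sex term and 0.23 without WT replicate 1, the only WT female. The 6-dpf difference passed without KO replicate 3 (0.60, adjusted p = 0.00983) and with library size alone (0.62, adjusted p = 0.00922), and the 14-dpf difference passed without KO replicate 2 (1.02, adjusted p = 0.000675). Its r with the members ran from -0.51 (Cdkn2c) to 0.48 (Cdkn2a) over the 30 libraries.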

How the data were processed

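The authors deposited a table of raw counts per Ensembl gene for 30 callus libraries. According to the submitters' notes, reads were made with bcl2fastq 2.20, aligned to mm39 with STAR 2.7.0d and assigned with featureCounts. Of 55416 identifiers 54749 were found in GENCODE M39, which gave symbols and merged exon lengths. Genotypes were compared at each time point, and time points within the pairs 3 and 6 dpf and 10 and 14 dpf, with an interaction, using edgeR 4.0.16 in R 4.3.3 (filterByExpr, TMM, robust quasi-likelihood fit, sex as covariate, Benjamini-Hochberg over all genes tested, threshold 0.05). Printed CPM use TMM factors over all 30 libraries, whereas each fit used factors of its own libraries. Intervals of fold changes are 95% t intervals. Alternatives were DESeq2 1.42.0, other scalings and filters, no sex term, all libraries in 1 model, the replicate number as a block and leaving out each mouse. The members and gene lists were chosen with earlier results of these data known. The text names the 6 members, Apex1 and Cdkn1a in any case, from each list at most 3 genes per direction and time point with the largest change among those past the threshold, and for each member the 3 protein-coding genes (mean CPM of at least 1) with the highest Pearson r of log2 CPM (prior count 2). Vpreb1, a B cell marker, was not uniquely matched and was left out. Promoter sequences come from RefSeq (GRCm38.p6), a different build from that of the counts. The steps were tested on simulated data.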

Additional observations from a re-analysis of the deposited data

Results flagged for a closer look

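In each of 5 groups of 4 or 5 mice, 8 genes (the 6 members, Cdkn1a and Apex1) and 5 summed gene lists were searched by Dixon's test for a library far from the others of its group, with the gap to the nearest library over the range as the measure and a limit that is stricter for 4 mice than for 5. No member passed that limit. In 2 of the 65 sets a library did, where chance gives about 1 in 20. WT replicate 1 of 14 dpf had a summed skeletal muscle marker level of 4870 CPM, and the nearest of the other 3 WT libraries had 1600 CPM. That library is the only WT female of 14 dpf, on which the sex-adjusted genotype difference at that time point rests. WT replicate 2 of 6 dpf had a summed neutrophil and precursor marker level of 4150 CPM against 3460 CPM in the nearest library. The cause was not tested for either.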

How the results depend on the processing

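The members gave 809 fold changes over 107 other fits (47 with every mouse, 60 with 1 mouse left out). Of these, 757 kept their side of the threshold without changing sign, 8 lost the threshold, 13 newly passed and 31 changed sign, each of the last for a value that had not passed. A value that rounded to 0, as for Cdkn2d at 6 dpf, has no sign and was not counted as a change. Cdkn1c at 6 dpf passed in 9 of 9 other fits (-1.83 to -1.65) and without each mouse (-1.95 to -1.68). The time changes of Cdkn1b, Cdkn2c and Cdkn2d, which passed in none of the comparisons, were recomputed only as to whether they passed, a choice made after their values were seen; 0 of 72 values passed in each comparison of 3 and 6 dpf and 0 of 66 in each of 10 and 14 dpf. Cdkn2a has 8 other fits at 3 dpf, since a fit that gave a gene no fold change or no adjusted p was not counted. Of 1712 values of 76 other genes picked by the naming rule, 1448 kept their call, 257 lost it, 6 newly passed and 1 changed sign: Plaur at 14 dpf ran from -0.09 to 0.69 with 1 mouse left out. The cause of the changes that follow was not tested unless stated.

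Under scaling by library size only, without TMM, the median log2 difference of all genes moved from 0.01 to 0.20 at 6 dpf, from 0.04 to 0.31 at 14 dpf, from -0.03 to -0.27 for the WT change from 3 to 6 dpf, from 0.02 to 0.25 for the interaction of 3 and 6 dpf and from 0 to 0.16 for that of 10 and 14 dpf, and without a filter from 0.04 to 0.14 at 14 dpf. The genes higher in KO went from 1075 of 2212 called to 2780 of 3594 at 6 dpf, from 570 of 1221 to 849 of 1313 at 10 dpf and from 865 of 2289 to 1878 of 2644 at 14 dpf. Those that rose went from 3159 of 6244 to 1902 of 8886 (WT, 3 to 6 dpf), from 1220 of 2190 to 788 of 2029 (WT, 10 to 14 dpf) and from 6 of 51 to 17 of 48 (KO, 10 to 14 dpf). Positive interactions went from 65 of 267 to 291 of 433 for 3 and 6 dpf and from 8 of 86 to 2 of 8 for 10 and 14 dpf. Signs flipped for Cdkn1c at 3 dpf (-0.05), Cdkn1b and Cdkn2c at 6 dpf (0.10 and 0.04), Cdkn2a at 14 dpf (0.04) and its WT change from 10 to 14 dpf (-0.04). The WT rise of Cdkn2a was 0.78 and no longer passed.

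With DESeq2, 85 genes were called at 3 dpf, 2187 at 10 dpf, 718 and 465 for the interactions of 3 and 6 and of 10 and 14 dpf and 550 for the KO change from 10 to 14 dpf. Cdkn1c then passed for the interaction of 3 and 6 dpf (-1.72) and for the KO change from 10 to 14 dpf (-1.18). With no filter 4 genes were called at 3 dpf, 217 for the KO change and 207 for the interaction of 10 and 14 dpf, and Cdkn2d passed at 10 dpf (0.40). Without the 20 most abundant genes the last interaction had 55. With no sex term 750 genes were called at 10 dpf, 6849 at 14 dpf and 672 for the KO change from 10 to 14 dpf. Cdkn1c was then -0.09 at 3 dpf and passed for that KO change (-1.46), Cdkn2a was 0.01 at 10 dpf, Cdkn2d passed at 14 dpf (0.49) and the Cdkn2b interaction of 10 and 14 dpf was -0.49. With all 30 libraries in 1 model, 38 genes were called at 3 dpf, 6188 at 14 dpf, 410 for the interaction of 3 and 6 dpf and 507 for the KO change from 10 to 14 dpf. Cdkn1c was -0.08 at 3 dpf and passed for the interaction (-1.74) and for that KO change (-1.49), Cdkn2c was -0.09 at 14 dpf, and the Cdkn2b interaction of 10 and 14 dpf was -0.30.

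Replicate numbers do not pair mice: over 13 pairs of equal number, the profiles' r about their group means ran from -0.25 to 0.39. With the replicate block in place of sex, 1 gene was called at 3 dpf, 677 at 6 dpf, 1279 at 10 dpf and 3188 at 14 dpf. Cdkn1c was -0.18 at 3 dpf and Cdkn2a 0.08 at 10 dpf.

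With 1 mouse left out, the genes called ran from 0 to 10 at 3 dpf (KO replicates 1 and 4 gave 6 and 10), from 890 to 2359 at 6 dpf (at most 1466 without WT replicates 2, 3 or 4 or KO replicate 1), from 42 to 1827 at 10 dpf (at most 638 without WT replicates 1 or 2 or KO replicates 1 or 3) and from 1206 to 6181 at 14 dpf (6181 without WT replicate 1, 3773 without KO replicate 2, at most 1353 without WT replicates 2, 3 or 4). They ran from 1223 to 3258 for the KO change from 3 to 6 dpf (1223 and 1705 without KO 6-dpf replicates 2 and 1), from 104 to 450 for that interaction, from 1162 to 2760 for the WT change from 10 to 14 dpf (1162 without WT 10-dpf replicate 3), from 0 to 252 for the KO change and from 2 to 206 for that interaction. At 3 dpf, Cdkn1b ran from -0.06 to 0.02, Cdkn1c from -0.21 to 0.22 and Cdkn2c from -0.17 to 0.07. At 10 dpf, Cdkn1c ran from -0.64 to -0.03 and Cdkn2a from -0.30 to 0.17. At 14 dpf, Cdkn2b ran from -0.06 to 1.21 and Cdkn2d from 0.42 to 0.76. From 3 to 6 dpf, Cdkn2a ran from 0.83 to 1.26 in WT, Cdkn1c from -0.05 to 0.45 and Cdkn2b from 1.16 to 1.72 in KO, and the Cdkn1c interaction from -1.91 to -1.40. From 10 to 14 dpf, Cdkn2a ran from -0.18 to 0.11 in WT, Cdkn1c from -1.62 to -1.07 and Cdkn2b from -0.45 to 0.20 in KO, and the interactions from -0.53 to 0.09 (Cdkn2a) and -0.07 to 0.67 (Cdkn2b). Leaving out WT replicate 1 at 14 dpf also removed the sex term. With 13 to 107 reads, Cdkn2a is the member whose depth limits it most.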
